A study of Homo sapiens with 8 samples.

Results

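The arrays whose sample title carries the code number 1 were compared with those carrying the code 2 or 3, in a series of 8 expression arrays of MDA-MB-231 cells. Members were chosen by the title alone: control replicate 1 (titled CTR-1), miR-148b replicate 1 (miR-148b-1) and miR-148b replicate 2 (miR-148b-1+), which makes 3 of the 8 arrays. The other 5 are control replicates 2 (CTR-2), 3 (CTR-2+) and 4 (CTR-3) and miR-148b replicates 3 (miR-148b-2+) and 4 (miR-148b-3). MDA-MB-231 is a human breast cancer line of mesenchymal shape that lacks estrogen receptor. All cells were transfected with the reagent RNAiFect, with a negative control or with pre-miR-148b, a microRNA precursor used at 75 nM. For the miR-148b arrays RNA was taken after 48 h, with no time listed for the controls. The labels call the 4 arrays of each treatment biological replicates and name the same cell line for all 8. They say neither what the code number nor what the plus mark on 3 of the titles stands for, so code 1 cannot be told apart from anything else its 3 arrays share.

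Cancer-testis antigens are genes normally read in germ cells and silenced by DNA methylation elsewhere, and tumour lines differ in which of them they express. Interferon-stimulated genes are switched on through interferon receptors and the JAK kinases bound to them, and many breast cancer lines keep part of this program at a standing level.

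On the code 1 arrays 18 of 32 cancer-testis antigens, the trefoil factors TFF1, TFF2 and TFF3 and 11 of 25 protocadherins were higher. Of the antigens 1 was lower and of the protocadherins 3. The luminal list that holds the trefoil factors was divided, with 8 of 18 higher and 4 lower. Lower on the code 1 arrays were 31 of 54 interferon-stimulated genes, interleukin 6, 9 of 13 complement genes and 14 of 29 collagens, while 4, 2 and 6 members of these 3 lists were higher. Of 15866 genes tested, 5789 (36.5%) differed at an adjusted p under 0.05, 2770 (17.5%) higher and 3019 (19.0%) lower on code 1. At least a 2-fold difference besides was met by 1849 genes (11.7%), of which 842 (5.31%) were higher and 1007 (6.35%) lower. Among the 14825 genes whose 8 values were all present, the 3 code 1 arrays lay wholly above the other 5 for 2342 (15.8%) and wholly below them for 2582 (17.4%). The p-values come from a limma fit over all genes with code 1, treatment and the plus mark as terms, adjusted by Benjamini-Hochberg. A log2 difference below is the code 1 term of that fit, with its standard error (SE), and each level is the deposited intensity, which has no unit. The count depended on single arrays and on the plus-marked and code 3 arrays: 3406 genes passed without control replicate 1, 3544 without miR-148b replicate 4, 3777 without the 3 plus-marked arrays and 2254 without the code 3 arrays. The split was drawn with the structure of these arrays known, so the count measures its size and is no independent evidence that it exists.

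**Figure D1:**
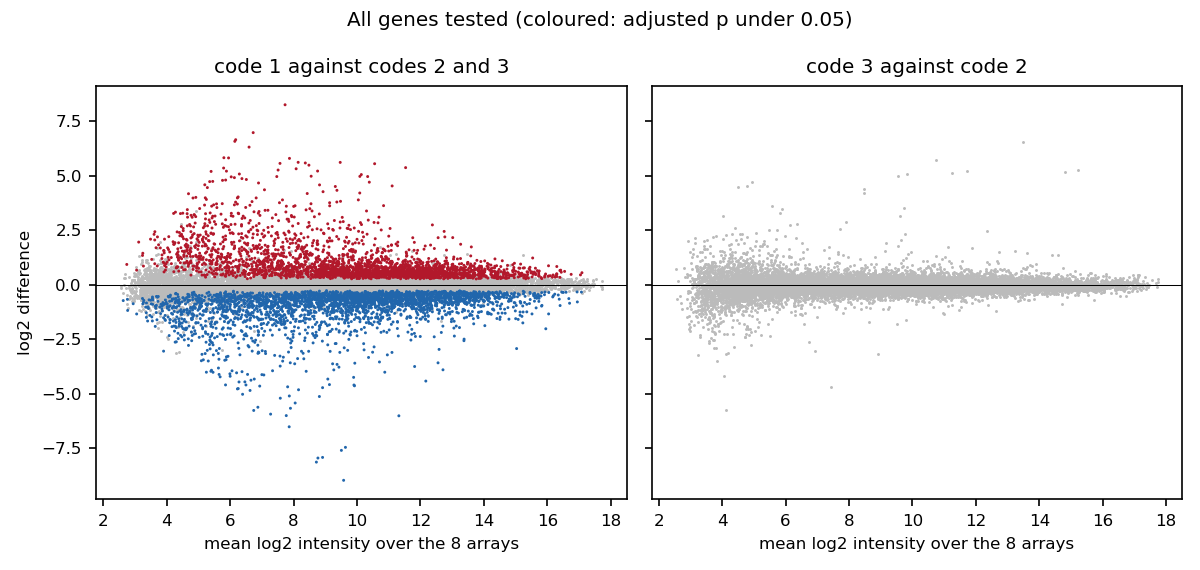
Log2 difference of every gene tested (y) against its mean log2 intensity over the 8 arrays (x), for code 1 against codes 2 and 3 on the left and for code 3 against code 2 on the right, 1 point per gene, coloured where the adjusted p was under 0.05. On the left 5789 genes are coloured and on the right 0.

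Pairs of arrays within code 1 correlated at 0.985 to 0.986 over log2 values of these genes, and 819 to 1204 genes differed at least 2-fold between them. Pairs of a code 1 and another array correlated at 0.944 to 0.963, with 1909 to 3468 genes apart by that much. Between code 2 and code 3 arrays the correlation was 0.980 to 0.988, with 423 to 1292 such genes. In a fit with all 3 codes, code 3 against code 2 gave 0 genes of 15708 in limma's test (0%), where 874 had an unadjusted p under 0.05, while code 1 differed from code 2 in 4171 (26.6%) and from code 3 in 4057 (25.8%). These comparisons share arrays. The plus mark was past the threshold for 2195 genes (13.8%) and the treatment for 0, with 2333 at an unadjusted p under 0.05. Control replicate 2 also held single spots far from all other arrays, with 16 genes at least 8-fold below every other array, such as the ribosomal gene RPL28 at 316 against 71662 to 80695 on the other 7, and miR-148b replicate 3 had 9 genes at least 8-fold above every other array. Array medians lay between 370 and 404, and the values carry no detection flag. Replicates are called biological in the labels, with no word on separate cultures, so the p-values measure the spread between these arrays.

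Values are given in a fixed order: for code 1, control replicate 1, miR-148b replicate 1 and miR-148b replicate 2, and for the others, control replicate 2, control replicate 3, miR-148b replicate 3, control replicate 4 and miR-148b replicate 4.

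MAGEA12, a cancer-testis antigen of the MAGE-A family, read 8128, 6705 and 9935 on the code 1 arrays and 162, 141, 194, 162 and 166 on the others. All 3 code 1 arrays, control and miR-148b, stood above all 5 others, with a log2 difference of 5.61 (SE 0.16, adjusted p = 7.77e-06 in limma). PAGE5, an antigen of the PAGE family, read 30612, 31071 and 28018 against 763, 769, 607, 901 and 696. The difference was 5.37 on the log2 scale (SE 0.11), and the groups did not overlap. CDH18, a cadherin known mainly from the nervous system, read 6648, 8245 and 7952 against 28.1, 26.8, 22.3, 24.1 and 23.6. With 8.26 (SE 0.13, adjusted p = 3.2e-06) it had the largest rise among the genes called with no overlap and no empty value. The trefoil factors are small secreted peptides of mucous epithelia, and TFF1 is a classic estrogen-induced gene of breast cells. TFF1 read 10846, 11813 and 9042 against 394, 584, 419, 292 and 241, and TFF3 read 10992, 9160 and 7649 against 300, 306, 246, 394 and 291. Both differed by 4.97 on the log2 scale, with SEs of 0.24 and 0.12, and neither overlapped between groups.

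IFI27, an interferon-induced gene, showed the opposite pattern with 228, 168 and 157 on code 1 and 12534, 13778, 10226, 14987 and 11502 on the others. Its log2 difference was -6.01 (SE 0.10, adjusted p = 3.21e-06 in limma). IL6, the inflammatory cytokine that signals through STAT3, read 272, 343 and 310 against 3763, 3417, 3017, 3097 and 2632. IL24, a cytokine of the interleukin 10 family, read 60.5, 60.3 and 63.2 against 1728, 1861, 1769, 1588 and 1420. CST6, a secreted inhibitor of cathepsins silenced by methylation in many breast cancers, read 10.1, 18.3 and 21.4 against 3598, 4383, 3173, 4156 and 3605. None of these 3 overlapped between the groups, and their log2 differences were -3.33 (SE 0.15), -4.72 (SE 0.09) and -7.92 (SE 0.26). These 9 genes were proposed as marks of the split with its results known, so their values describe it.

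**Figure D2:**
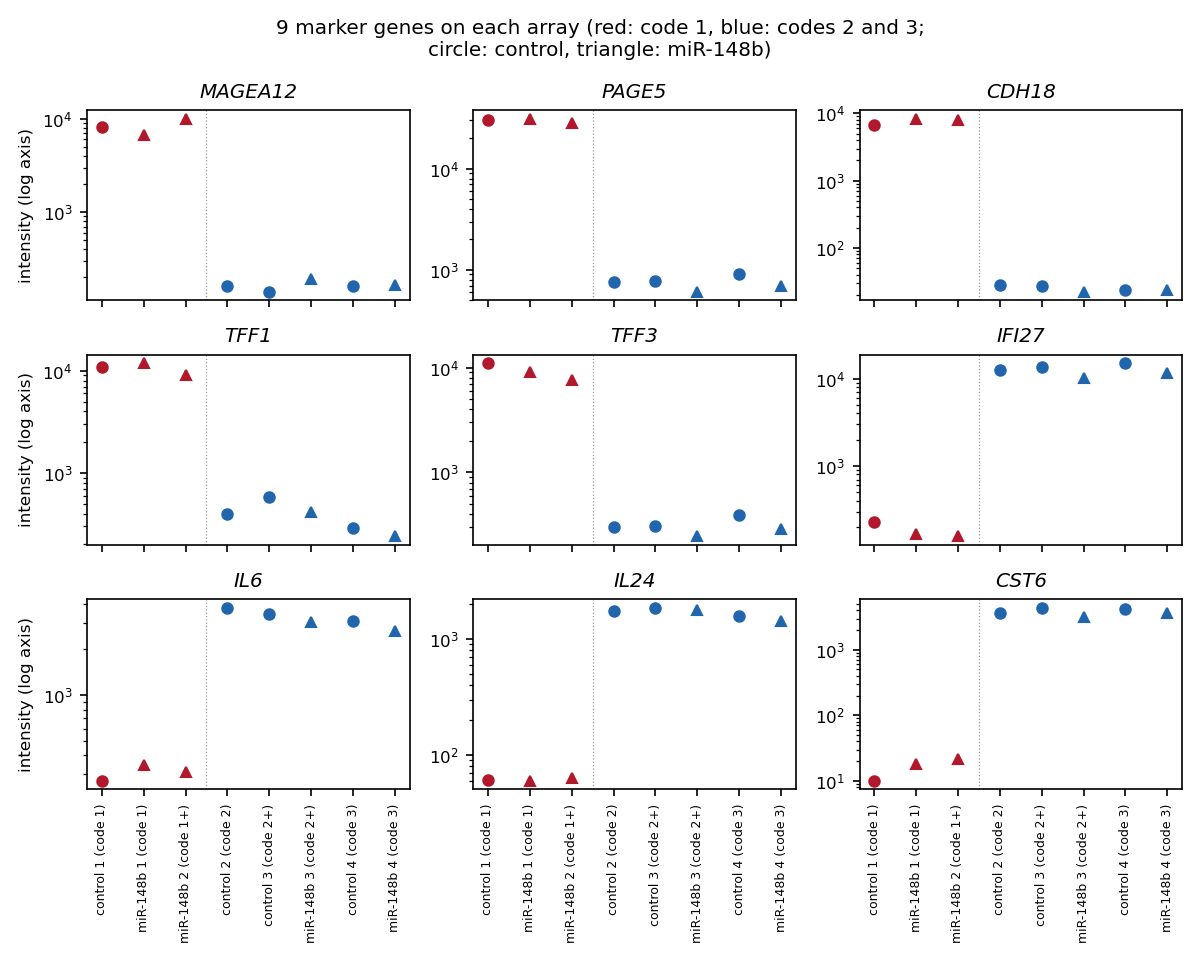
Deposited intensity (y, log axis, no unit) of 9 marker genes on each of the 8 arrays (x), red for code 1 and blue for codes 2 and 3, circles for control and triangles for miR-148b. In each panel the 3 code 1 arrays lie apart from the other 5, for MAGEA12 between 6705 and 9935 against 141 to 194, whatever the treatment.

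The cancer-testis list as a whole leaned to code 1. Of 32 members tested, 18 were higher and 1 was lower, and the median log2 difference was 1.63, where the median over all genes was -0.04. All 18 were at least 2-fold higher. MAGEA1 read 2650, 4268 and 2265 against 41.3 to 57.4, and MAGEB2, an X-linked relative of the MAGE-A genes, read 2028, 2099 and 2297 against 35.1 to 56.0. CSAG1, a neighbour of the MAGE-A genes, read 3574 to 5251 against 165 to 227 with a log2 difference of 4.51 (SE 0.10). MAGEC1 read 3737, 3729 and 3754 against 245 to 279, so the spread within each group was small beside a difference of 3.83 (SE 0.09). MAGEA6, MAGEA2B, PAGE2B, PAGE2 and MAGEA4 were each higher by 5.06 to 5.59. The family was not switched as a block: SSX1 differed by 5.82, with 2 of the other arrays empty, while SSX2 (-0.36) and SSX5 were not past the threshold, and CT83, MAGEA10 and MAGEB1 did not pass either. DDX43, an RNA helicase of the same class, went the other way at -4.82, with 1 of the 3 code 1 arrays holding a value (17.4) against a mean of 511 on the others. MAGE-A, PAGE and SPANX genes have near-identical copies that short probes may not separate, so values of single members of these families are uncertain.

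**Figure D3:**
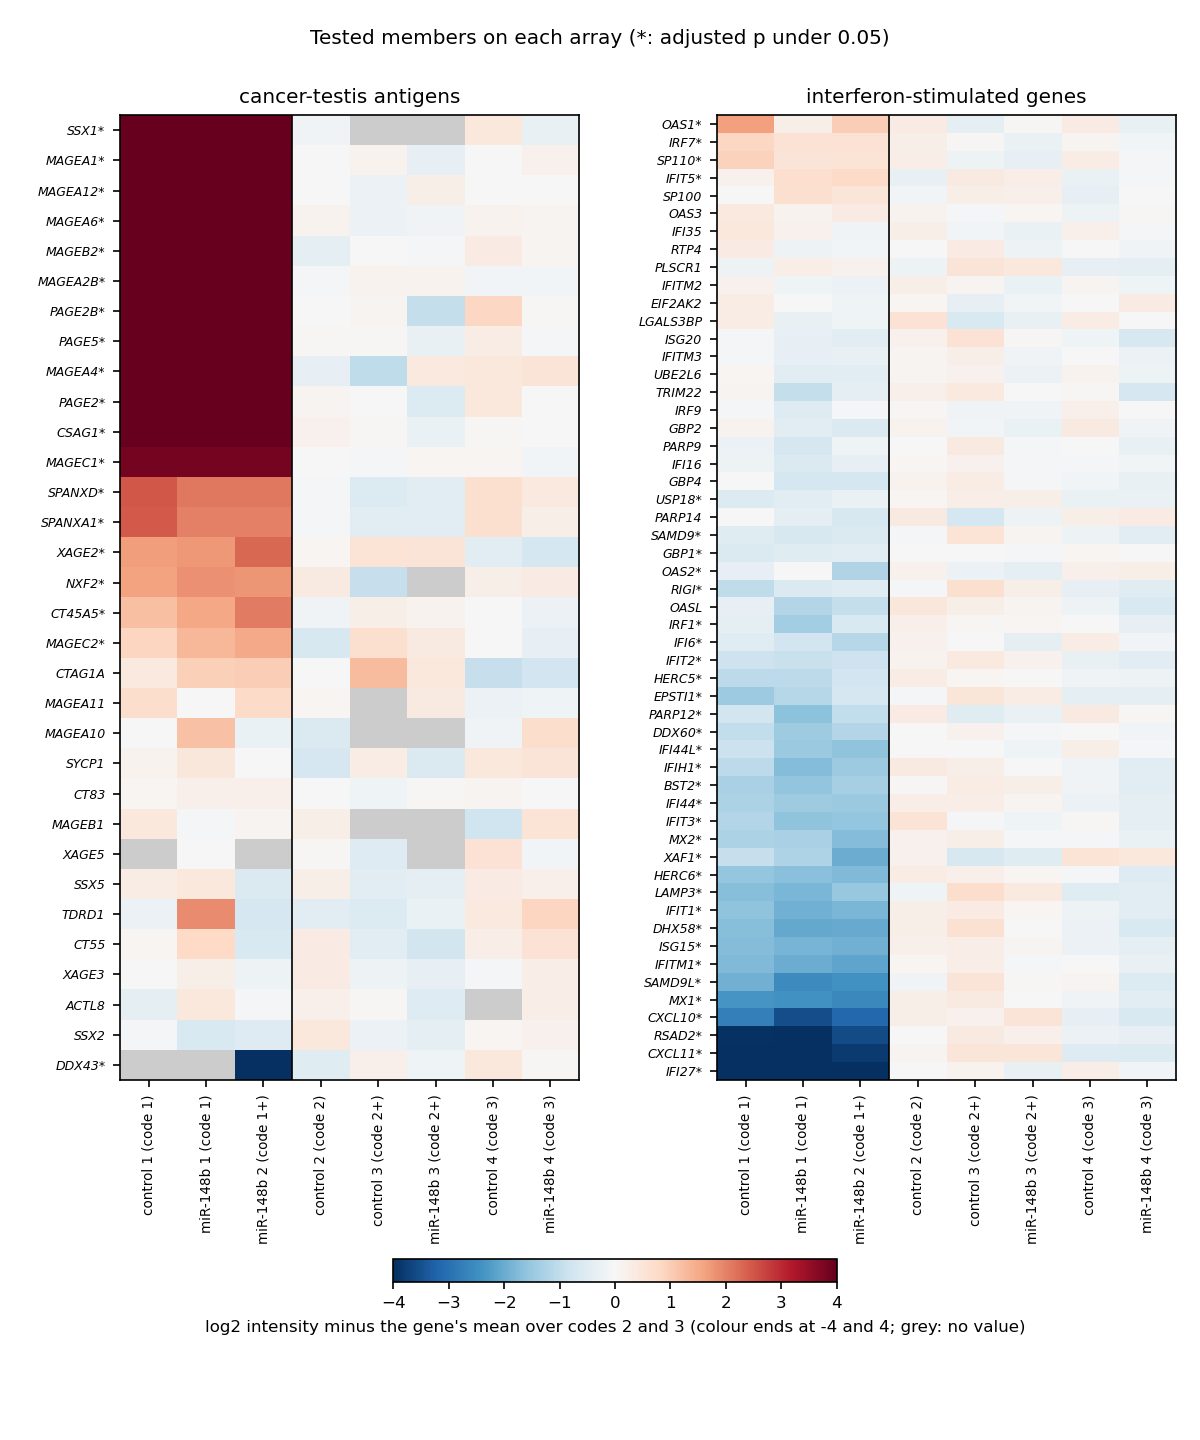
Log2 intensity of each tested cancer-testis antigen (left, 32 genes) and interferon-stimulated gene (right, 54 genes) on each array, relative to the gene's mean over codes 2 and 3, red for higher and blue for lower, grey for an empty value, the colour ending at -4 and 4. The 3 code 1 columns on the left of each panel stand apart, 18 antigens being higher and 31 interferon genes lower on them (stars).

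Interferon-stimulated genes were mostly lower on code 1. Of 54 tested, 31 were lower and 4 higher, with a median log2 difference of -0.63. CXCL11, a chemokine induced by interferon, read 10.2, 8.95 and 20.2 against 310, 404, 407, 201 and 197. MX1, a GTPase that blocks influenza virus, read 929, 890 and 805 against 5582, 6078, 4870, 4324 and 3515. IFITM1, which hinders viral entry at membranes, read 1594, 1372 and 1252 against 4413 to 6409. The groups did not overlap for any of these 3 genes, with log2 differences of -4.45 (SE 0.18), -2.35 (SE 0.15) and -1.85 (SE 0.10). RSAD2 (-4.12), ISG15 (-1.75), IFIT1 (-1.67) and BST2 (-1.30) were lower too. The list did not move as one: OAS1 (1.08), IRF7 (0.73), SP110 (0.72) and IFIT5 (0.52) were higher, and IRF9 (-0.19), IFITM3 (-0.14) and EIF2AK2 (0.00) were not past the threshold. Of the 31 lower genes 14 also lay in chromosome stretches whose genes were lower together (below), and outside any such stretch 17 of 37 list members were lower and 3 higher. Between 23 members (without control replicate 1, and without the code 3 arrays) and 33 (with a pseudocount of 32, among others) were lower under the alternatives.

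The promoters of 3 lower members are shown because they carry the sequence through which interferon acts, the interferon-stimulated response element. Sequences are the 250 bases before the gene's start from RefSeq on GRCh38.p14, plus strand, IFI27 at chr14:94110486-94110735, IFIT1 at chr10:89392373-89392622 and ISG15 at chr1:1013247-1013496, with every match to its core, GAAA followed by any 2 bases and GAAA again, on either strand in capitals, overlapping matches merged.
IFI27: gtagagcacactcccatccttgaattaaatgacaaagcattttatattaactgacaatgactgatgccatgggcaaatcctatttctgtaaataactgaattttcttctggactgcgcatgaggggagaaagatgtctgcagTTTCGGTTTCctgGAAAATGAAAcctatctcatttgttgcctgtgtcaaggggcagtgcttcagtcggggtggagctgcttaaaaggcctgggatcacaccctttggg
IFIT1: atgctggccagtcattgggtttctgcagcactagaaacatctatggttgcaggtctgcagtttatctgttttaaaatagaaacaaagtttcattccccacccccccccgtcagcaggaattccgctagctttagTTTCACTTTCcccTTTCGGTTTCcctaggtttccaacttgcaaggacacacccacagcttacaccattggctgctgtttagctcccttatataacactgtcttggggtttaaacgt
ISG15: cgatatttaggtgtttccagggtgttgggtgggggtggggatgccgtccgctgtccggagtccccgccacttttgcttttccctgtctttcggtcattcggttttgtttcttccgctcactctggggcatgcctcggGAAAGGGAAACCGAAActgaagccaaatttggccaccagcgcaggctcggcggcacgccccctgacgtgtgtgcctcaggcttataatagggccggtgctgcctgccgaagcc
Of the 54 tested members 43 had a promoter in the RefSeq table, and 25 of these (58.1%) held this motif on either strand, where 839 of all 27305 promoters did (3.07%). It stood in 17 of 25 lower members (68.0%), 7 of 15 members not past the threshold (46.7%) and 1 of 3 higher ones (33.3%). A match is a stretch of letters and not a measured binding site.

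Genes upstream and beside this program were read as well. IFNAR1 and IFNGR2, which encode chains of the type I and the type II interferon receptor and were picked after their values were seen, read 704 to 784 and 974 to 1183 on code 1 against 1335 to 1538 and 2212 to 2616 on the others. Their log2 differences were -0.94 (SE 0.10, adjusted p = 0.000854) and -1.15 (SE 0.08, adjusted p = 0.00017). IFNAR2, the other type I receptor chain, was dim, at 12.1 to 40.2 against 16.9 to 48.5, and was not past the threshold (-0.47, adjusted p = 0.223). IFNB1, the fibroblast interferon, read 6.53 to 8.64 on code 1 and 5.37 to 11.4 on the others. Whether receptor level or chromosome stretch had a part in the interferon result was not tested. Antigen presentation genes, many of them interferon targets, were called about as often as genes at large: 8 of 20 class I genes and 4 of 11 class II genes (36.4%) were called, beside 36.5% of all genes. All 12 of these called genes were lower, where 3019 of the 5789 genes called in all were lower. HLA-B read 51974, 26585 and 32297 against 123784, 105485, 102425, 96101 and 75492, a log2 difference of -1.34 (SE 0.18). PSMB9, a subunit of the immunoproteasome, read 9961, 7640 and 7917 against 12349 to 16459. For HLA-B, HLA-F and HLA-DPA1 control replicate 1 was the highest of the code 1 arrays. Classical HLA genes resemble each other, and a probe may read several of them. For the weakest class II member past the threshold, HLA-DMA (-0.47), the groups overlapped and its second probe (-0.40) was not past it. For HLA-DMB the probe used gave -0.88 and a second probe -0.76, both past the threshold. A further, very dim probe (mean log2 intensity 3.41) gave 0.25 and was not past it. Averaging the HLA-DMB probes on each array gave 0.52, above every single probe, and the reason was not tested.

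Of 14 genes of the interleukin 6 family, 5 were lower and 1 higher, a called share of 42.9% near the 36.5% of all genes. IL11 read 2222, 5659 and 5160 against 10136, 11416, 19848, 10242 and 18088 (-1.98, SE 0.13), and EBI3, a subunit of interleukins 27 and 35, was lower by -2.22 although its second, dimmer probe gave -0.31 and was not past the threshold. SOCS3, the feedback inhibitor of this pathway, was the higher one, with 2921, 2410 and 2629 against 1211 to 1382, although its second probe (0.52) was not past the threshold. Of 24 interleukin 1 and NF-kB genes 10 were lower and 4 higher (58.3% called, beside 36.5% of all genes). IL1A was lower (-1.47). IL1B read 866 to 1019 against 72.9 to 193 and IL18 928 to 1072 against 330 to 482, both inflammasome cytokines and both higher on code 1 with no overlap. The interleukin 1 receptor IL1R1 read 58.3 to 63.2 against 171 to 236 and was lower, as was TNFAIP2 (-1.48). PTX3, a soluble pattern recognition protein, was not past the threshold (0.18, adjusted p = 0.229 in limma).

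Chemokines followed with 7 of 16 lower and 2 higher. CX3CL1, a chemokine anchored to the membrane, read 332, 287 and 338 against 2133, 3588, 3140, 2419 and 2245, and CCL2, which attracts monocytes, 53.4 to 62.3 against 248 to 391. Dimmer probes of CX3CL1 gave -0.72 and -2.16 beside -2.99. The higher pair was the receptor CXCR4 (1.58) and the growth factor CSF3 (1.58). Of 13 complement genes 9 were lower and 2 higher, with a median of -0.67. Complement component C2 read 71.5 to 76.1 against 1395 to 2683 and CFD, the protease that starts the alternative pathway, 149, 154 and 141 against 1339, 1444, 1131, 1414 and 1111. Other probes of C2 gave -1.80 and -0.60, so the size depends on the probe. The higher pair, CD59 (0.77) and CD55 (0.74), are inhibitors of complement on the cell's own surface.

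**Figure D4:**
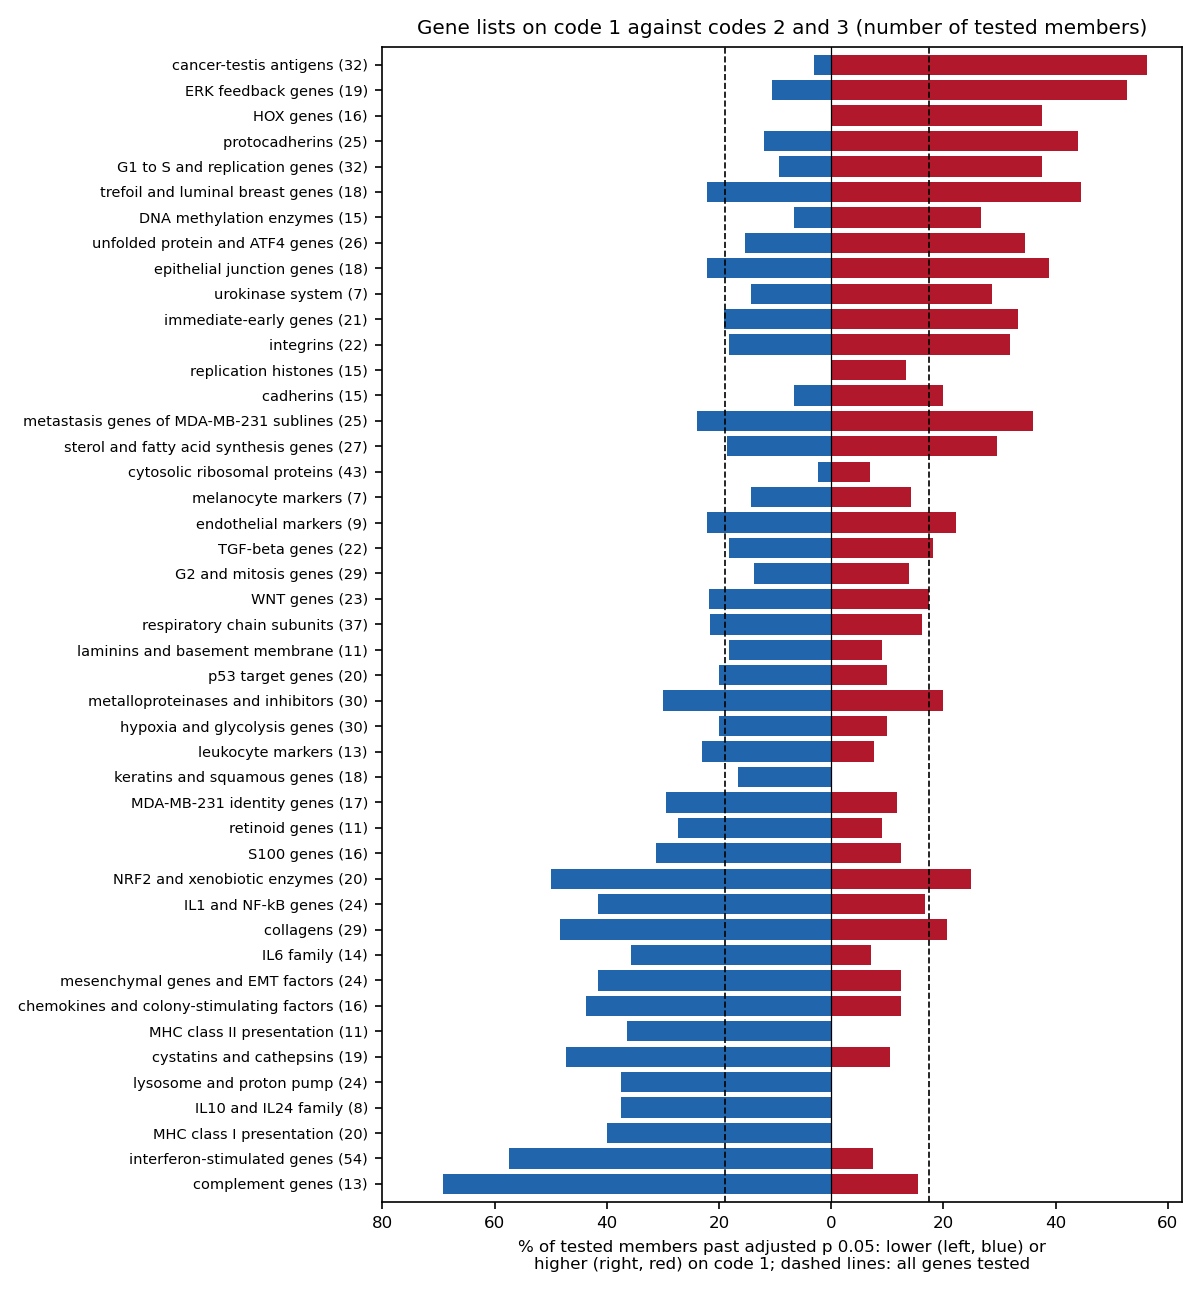
Share of the tested members of each gene list (y, number tested in brackets) that were lower (left, blue) or higher (right, red) on code 1 at an adjusted p under 0.05 (x, %), with dashed lines at the shares among all genes, 19.0% and 17.5%. Cancer-testis antigens (18 higher, 1 lower) and complement genes (9 lower, 2 higher) lie at the ends.

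Of 17 genes by which MDA-MB-231 is known, 2 were higher and 5 lower (41.2% called, beside 36.5% of all genes), and 3 of the lower ones differed at least 2-fold. VIM, the mesenchymal intermediate filament, had means of 167667 and 119954, EGFR of 3072 and 2926, CAV1 of 36607 and 38114 and PLAU of 100039 and 81748. ESR1, the estrogen receptor that this line lacks, had means of 64.7 and 67.7, and CDH1, the epithelial cadherin it lacks, 75.1 and 63.3. Neither these low readings nor CAV1, EGFR and PLAU were past the threshold. CDKN2A, known to be deleted in this line, had means of 322 and 551 and was called lower (-0.88), although the groups overlapped. Without detection flags such a reading cannot be called presence. TGFBI, a matrix protein induced by TGF-beta, read 3960, 3280 and 3375 against 20533, 23386, 20219, 20134 and 19215, and CD44, the hyaluronan receptor, 18336, 21501 and 23247 against 41535 to 64408. Both were lower on every code 1 array, by -2.49 (SE 0.09) and -1.25 (SE 0.12). Among leukocyte markers 3 of 13 were lower and 1 higher (30.8% called, below the 36.5% of all genes). The pan-leukocyte gene PTPRC had means of 14.2 and 10.9 and was not past the threshold. CSF1R, the receptor that marks macrophages, was the strongest of these markers with 642 to 750 against 2286 to 2941.

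Mesenchymal genes and the factors that drive the epithelial to mesenchymal transition were lower in 10 of 24 cases and higher in 3. PDGFRB, a growth factor receptor of stromal cells, read 164, 152 and 156 against 902, 998, 1168, 766 and 913 (-2.58, SE 0.13). SNAI1, a repressor of epithelial genes, read 121 to 194 against 393 to 538, and CDH2, N-cadherin, 5.76 to 18.4 against 39.4 to 71.0. VIM (0.46), FBN1 (0.54) and LOXL2 (0.38) were the higher members, and ZEB1 (-0.22), ZEB2 (0.20) and FN1 (0.45) were not past the threshold. Epithelial junction genes were divided, 7 of 18 higher and 4 lower. OCLN, a tight junction protein, read 1032, 1358 and 1471 against 251 to 465, and CLDN1 205 to 308 against 47.6 to 93.7, while CLDN4 (-1.32) and ST14 (-0.90) were lower. Keratins and squamous genes gave 3 of 18 lower and 0 higher, a called share of 16.7% beside 36.5% of all genes. KRT83, a hair keratin, read 16.8 to 21.4 against 68.0 to 126.

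Luminal genes, the trefoil factors counted among them, were divided too, with 8 of 18 higher and 4 lower. TFF2 read 7378, 4925 and 4457 against 319 to 448 (3.89, SE 0.10). AGR2, an endoplasmic reticulum protein of secretory cells, read 3427, 2618 and 2247 against 231 to 498 (3.09, SE 0.15). MYB (2.27) and SPDEF (1.29), transcription factors of luminal cells, were higher. GATA3 (-1.40) and MUC1 (-2.30), equally luminal, were lower, and ESR1 (-0.10) and XBP1 (-0.05) were not past the threshold. S100P, a calcium-binding protein of secretory tumours, read 1288, 1065 and 812 against 130 to 223 (2.64, SE 0.13), while S100A4 (-0.66) and S100A2 (-0.82), of the same family, were lower.

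Adhesion genes differed by family. Of 15 cadherins 3 were higher and 1 lower, a called share of 26.7% below the 36.5% of all genes, with a median of -0.28. The 3 were CDH18, CDH12 (252, 238 and 300 against 16.6 to 27.0) and CDH10 (58.8 to 83.0 against 3 values of 4.90 to 10.8), which lie near each other on chromosome 5. Protocadherins, their relatives clustered on that chromosome and elsewhere, were higher in 11 of 25 cases and lower in 3, with a median of 0.68. PCDHB2 read 1096, 882 and 842 against 129 to 154, and PCDH7 182 to 293 against 13.9 to 26.4. FAT1, a giant member of the wider cadherin family, read 13829 to 16502 against 5322 to 7088. Integrins, the receptors for matrix, were higher in 7 of 22 cases and lower in 4 (50.0% called, beside 36.5% of all genes). ITGA2, a collagen receptor chain, read 12049, 9631 and 6832 against 1789 to 3693 (1.63, SE 0.14), and ITGA1 558 to 869 against 223 to 272. For ITGB2 (1.73) and LAMA4 (3.62), a laminin chain, a second, dimmer probe gave no difference past the threshold (-0.02 and -0.10).

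Matrix genes were read as well. Collagens gave 14 of 29 lower and 6 higher, with a median of -0.47. COL1A2, a chain of type I collagen, read 11.5, 31.6 and 14.7 against 364, 348, 304, 494 and 491 (-4.65, SE 0.29), and COL5A1 1377, 1545 and 1558 against 6699 to 8416 (-2.37, SE 0.11). COL18A1 read 18220 to 23055 against 53691 to 56457. The higher members included COL13A1, a collagen of the cell membrane (34651 to 45926 against 14897 to 22631), and the basement membrane chains COL4A4 (2.08), COL4A5 (1.25) and COL4A6 (2.33), of which COL4A4 and COL4A6 were dim, with 3 and 2 of the other arrays empty. LAMB1, a laminin chain, read 2971, 2916 and 2988 against 10652 to 11473 (-1.90, SE 0.08). Among 30 metalloproteinases and their inhibitors 6 were higher and 9 lower (50.0% called, beside 36.5% of all genes). ADAMTS1, a protease that cleaves proteoglycans, read 2803, 3828 and 3685 against 66.0, 186, 184, 120 and 162, and its second probe gave 4.52 beside 4.58. MMP1, the interstitial collagenase, went the other way with 1636, 1912 and 1718 against 4808 to 7931.

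Genes by which metastatic sublines of MDA-MB-231 are known were divided, 9 of 25 higher and 6 lower. ADAMTS1 and MMP1, both named for metastasis, thus differed in opposite directions. CXCR4 (8055 and 2538 on average), ANGPTL4 (2209 and 510), EREG (3534 and 1312) and KYNU (2444 and 437) were higher on code 1. IL11 (4347 and 13946), NEDD9 (124 and 490), ST6GALNAC5 (198 and 653) and SPARC (60.3 and 240.1) were lower. CCN2 was not past the threshold (0.98), with 426 on control replicate 2 and 4992 to 11581 on the other 7 arrays. PTGS2 (0.89) was higher at low readings of 80.4 and 54.6, with overlap.

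Proteases of the lysosome and their inhibitors were lower in 9 of 19 cases and higher in 2. Beside CST6, CST7, another cystatin, read 8.89 and 5.97 on the code 1 arrays that held a value against 149 to 241, and the cathepsins CTSH (1372 to 1769 against 3768 to 5412) and CTSF (4024 to 4692 against 10122 to 12043) were lower without overlap. Lysosomal and proton pump genes gave 9 of 24 lower and 0 higher, a called share of 37.5% near the 36.5% of all genes, and 1 of them differed 2-fold. NEU1, the lysosomal sialidase, read 4964, 4004 and 4351 against 9795 to 12137 (-1.26, SE 0.09), and GAA, which breaks down glycogen, 3860 to 5514 against 6903 to 9781. Retinoid genes held RARRES2, a chemokine-like protein, which read 7.60 and 8.41 on the code 1 arrays with a value against 1430 to 2654, and PLAAT4, 2337, 1540 and 1201 against 10270 to 16113.

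Detoxification genes were lower in 10 of 20 cases and higher in 5. GSTM3 and GSTP1, glutathione transferases, read 8979 to 9941 against 65684 to 86145 and 22908 to 28916 against 90126 to 131849. CYP1B1, an oxidase of xenobiotics and estrogens, read 3221, 3795 and 3598 against 16675 to 23346 (-2.56, SE 0.13). ALDH3A1, an aldehyde dehydrogenase, was the strongest of the higher ones with 254 to 356 against 3 values of 8.88 to 13.1.

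In the ERK feedback list 10 of 19 genes were higher and 2 lower, with a median of 0.47. These genes are induced by the ERK kinases and restrain them. DUSP4 read 16552, 15414 and 14505 against 5805 to 7787 (1.19, SE 0.10), SPRY1 910 to 1066 against 250 to 361 and DUSP6 16364 to 18440 against 8111 to 10153. DUSP10, which acts mainly on other kinases of the family, was lower with 212, 288 and 335 against 845 to 1821. WNT genes were higher in 4 and lower in 5 of 23 cases, a called share of 39.1% near the 36.5% of all genes. LEF1, the transcription factor of the pathway, read 3090, 4447 and 4084 against 366 to 801, the receptor FZD8 839 to 1017 against 82.6 to 157, and the ligand WNT5A 796, 1121 and 1375 against 3 values of 4.93 to 16.8. The ligand WNT10A was lower (138 to 184 against 441 to 934). TGF-beta genes gave 4 of 22 higher and 4 lower, a called share of 36.4%, again near that of all genes. INHBA, the activin A subunit, read 504, 691 and 617 against 4809, 4696, 5818, 3550 and 5514 (-3.10, SE 0.14), and SMAD7, an inhibitor of the pathway, 218 to 324 against 529 to 683.

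Transcription factors of position and DNA methylation enzymes were also read. HOX genes, which encode position along the body, gave 6 of 16 higher and 0 lower. Their called share of 37.5% was near the 36.5% of all genes. HOXB6 read 382, 528 and 645 against 31.8 to 45.9 and HOXB5 158 to 235 against 18.1 to 31.4, but the second probe of HOXB6 gave 0.59, just past the threshold (adjusted p = 0.0468 over all probes in limma). HOXB7 (-1.33) was not past it. Of 15 genes that write, read or remove DNA methylation, 4 were higher and 1 lower, a called share of 33.3%, also near that of all genes. DNMT3B, which methylates new sites, read 4357, 7733 and 8560 against 1525, 2798, 3058, 1424 and 2016 (1.60, SE 0.16). DNMT1, the maintenance methyltransferase and a known miR-148b target, was not past the threshold (0.47, adjusted p = 0.0776).

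Lists of growth and metabolism varied in the size of their differences, where the median size over all genes was 0.33 on the log2 scale. It was 0.47 for sterol and fatty acid synthesis and 0.39 for unfolded protein and ATF4 genes. Lower median sizes were those of G2 and mitosis (0.22), glycolysis and hypoxia (0.19) and cytosolic ribosomal proteins (0.08). Of 32 genes of G1, S phase and replication 12 were higher and 3 lower, none by 2-fold. GINS2 read 8767 to 12219 against 4582 to 5809 and CDT1, a licensing factor, 16207 to 19786 against 7771 to 12258, while CCNE1 was lower (5509 to 5856 against 9225 to 13013). Genes of G2 and mitosis gave 4 of 29 in each direction. Glycolysis and hypoxia genes gave 3 higher and 6 lower of 30, respiratory chain subunits 6 and 8 of 37, sterol and fatty acid synthesis 8 and 5 of 27 and p53 targets 2 and 4 of 20. In this order, from G2 and mitosis on, the called shares were 27.6%, 30.0%, 37.8%, 48.1% and 30.0%, beside 36.5% of all genes. In the list of unfolded protein and ATF4 genes 9 of 26 were higher and 4 lower, with ATF4 at 84021 to 106562 against 43994 to 68702 and its targets PSAT1 (0.97) and PHGDH (1.51). Cytosolic ribosomal proteins, with 3 higher and 1 lower of 43, held few called members beside 36.5% of all genes, and none of the 4 differed 2-fold.

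Outside the lists, the genes with the largest differences included surface and secreted proteins. CD96, a receptor of T and NK cells, read 1364, 1072 and 1095 against 9.89 to 18.8 (6.58, SE 0.23), and PCSK5, a proprotein convertase, 3102 to 3298 against 50.6 to 82.9. SEL1L3 read 4023 to 4109 against 102 to 135. SETBP1, which binds the SET protein, read 2297 to 2886 against 52.1 to 114. For DMD, the dystrophin gene, the probe used gave 5.26 but its other probes gave 2.29, 0.10 and -0.38, so the probes disagree. The largest fall was that of ADGRF1, an adhesion G protein-coupled receptor, with 10.7, 17.4 and 19.6 against 8087, 12265, 9171, 6033 and 5871 (-8.97, SE 0.22). NGFR, the low affinity neurotrophin receptor, read 10.5 to 21.9 against 758 to 1394, and FPR1, a receptor for formylated peptides, 12.9 to 47.7 against 863 to 1281. KRABD1 (-7.95), LGALS12 (-5.12), SORCS2 (-5.10), ODAPH (-4.85), PRSS38 (-4.76), PLEKHS1 (-4.68) and the long noncoding RNA UCA1 (-4.63) were lower as well. PSG4, a pregnancy-specific glycoprotein, read 19.4, 16.3 and 24.4 against 690 to 815.

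Many differences were shared by neighbours on a chromosome. Genes were put in the order of the RefSeq annotation of GRCh38.p14, and windows of 11 measured neighbours whose median log2 difference reached 0.5 in either direction were merged into stretches. Code 1 against the other codes gave 134 stretches among 15591 windows, 60 higher and 74 lower, of 11 to 96 genes. Code 3 against code 2 gave 0, and the plus mark 26. The stretches held 2885 of 15843 placed genes (18.2%), 21 of them in stretches of both directions. Within the higher stretches 727 of 1334 genes were called higher, and within the lower ones 848 of 1572 were called lower. These shares follow from how the stretches were chosen. Outside all stretches 4068 of 12958 genes (31.4%) were called, so most of the differing genes lay outside them.

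The longest stretches were lower ones on the short arm of chromosome X, from PLCXD1 to FTHL17 with 96 genes (81 below 0 and 68 of these past the threshold, median -0.90) and from DYNLT3 to SSX2 with 87 (74 and 55, median -0.76). Chromosome 7 held lower stretches from MKLN1 to PRSS1 with 53 genes (median -0.68) and CTAGE6 to ESYT2 with 82 (median -0.74), the second of which holds RARRES2. Higher stretches covered ZNF700 to OR10H3 on chromosome 19 (85 genes, median 0.54), USB1 to EDC4, LCAT to ZNF19 and PHLPP2 to CENPN on chromosome 16 (62, 51 and 40 genes), GMPPA to GIGYF2 on chromosome 2 (60 genes, median 0.60) and ZNF518B to PGCKA1 on chromosome 4 (44 genes, median 0.70). The medians of these stretches were modest, and not all of their genes went the same way. In USB1 to EDC4 44 of 62 genes were above 0, and in CTAGE6 to ESYT2 69 of 82 were below 0. Single genes could differ far more than the median, such as PCDH7 (3.67) in the stretch on chromosome 4. The strongest window of CTAGE6 to ESYT2 had a median of -2.41.

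**Figure D5:**
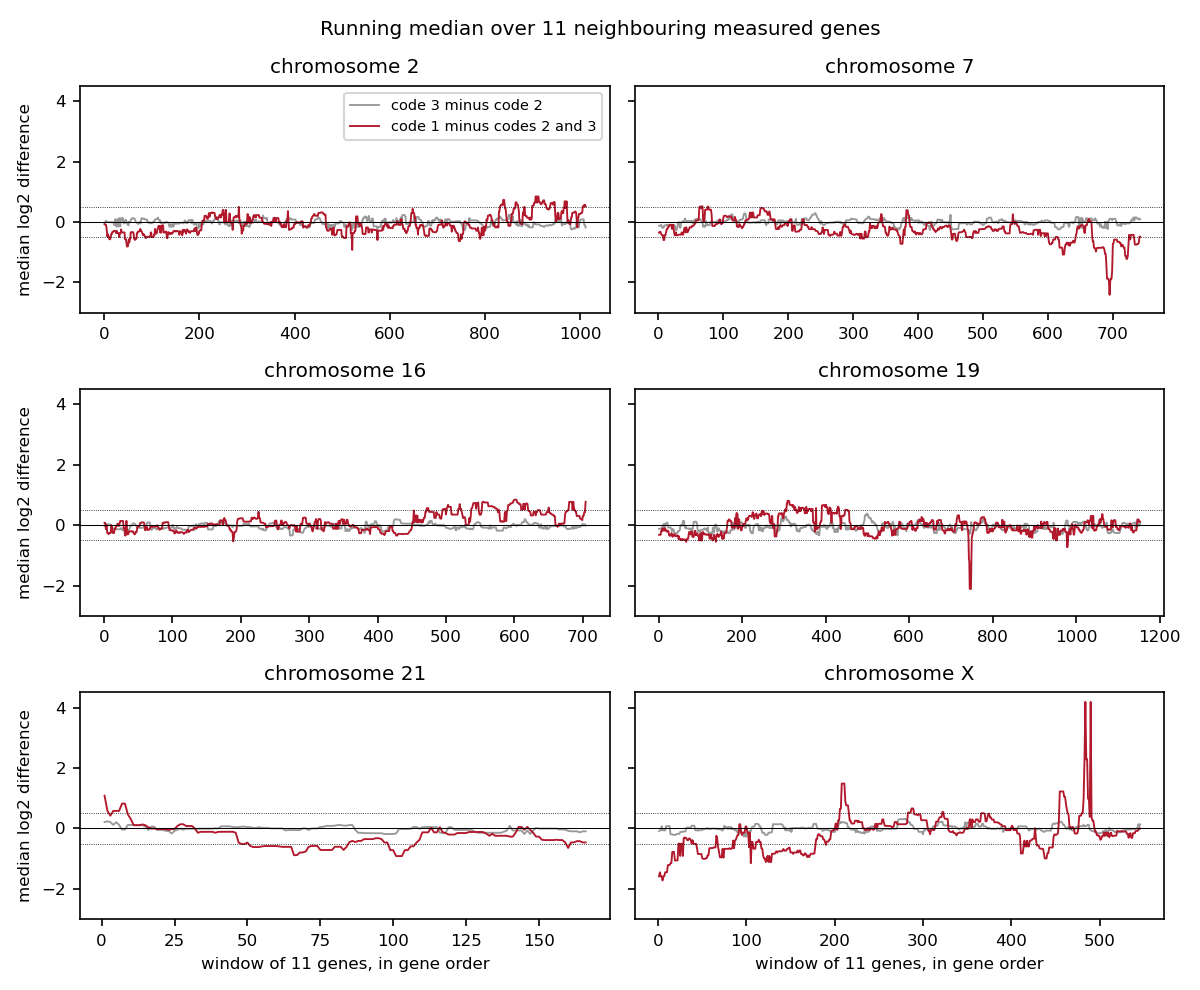
Median log2 difference (y) over windows of 11 neighbouring measured genes in their order along 6 chromosomes (x, window number), red for code 1 minus codes 2 and 3 and grey for code 3 minus code 2, with dotted lines at -0.5 and 0.5. The red line leaves the dotted band for long stretches, such as the 96 genes at the start of chromosome X and the 82 at the end of chromosome 7, and reaches 4.19 at the MAGE-A genes, while the grey line stays within it.

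Shorter stretches held families with large differences. The stretch from VMA21 to PNMA5 on chromosome X, with 18 genes, held MAGEA4, MAGEA2B, MAGEA12, MAGEA6 and CSAG1 and had the strongest window, with a median of 4.19, although only 12 of its genes were above 0. That from MAGED2 to LINC01278, with 21 genes, held PAGE2, PAGE2B and PAGE5. Of the 18 cancer-testis antigens called higher, 13 lay in higher stretches, 1 lay in no stretch, and MAGEB2 and SSX1 were among those in lower ones. ANKRD33B to CDH10 on chromosome 5, with 19 genes, held CDH18, CDH12 and CDH10, and HARS2 to PCDHB14 on the same chromosome, with 17 genes, held PCDHB2. Of 11 protocadherins called higher 9 lay in higher stretches. Neighbouring family members make up part of the windows that define a stretch. The antigen and protocadherin counts therefore follow in part from how the stretches were chosen. PAFAH1B3 to PHLDB3 on chromosome 19, with 17 genes, was lower, held PSG4 beside other PSG genes and had a window with a median of -2.11. Whether the probes separate related genes, such as the PSG and PCDHB members, was not tested.

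Interferon genes lay in several of the lower stretches. CFAP298 to PSMG1 on chromosome 21, with 49 genes and a median of -0.59, held IFNAR1, IFNGR2 and IL10RB, which encodes a receptor chain of the interleukin 10 family and was lower by -1.09. The next one, B3GALT5-AS1 to TFF2 with 19 genes, held MX1 and MX2, which were lower, and TFF3 and TFF2, which were higher against their neighbours. UBR7 to PAPOLA on chromosome 14, with 31 genes and a median of -0.60, held IFI27, and MDM4 to C1orf116 on chromosome 1, with 30 genes and a median of -0.54, held IL24. In both, the named gene differed by more than the median of its stretch. ISG15 lay in a stretch of 11 genes on chromosome 1, HES4 to SCNN1D, with a median of -0.50, and IFIT1 and IFITM1 lay in none. The arrays measured RNA, and DNA copy number was not analysed here.

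Whether miR-148b acted differently on code 1 could be asked with 3 residual degrees of freedom. The difference between the miR-148b effects was past the threshold for 0 of 15664 genes in limma (0%), where 564 had an unadjusted p under 0.05. Genes studied as miR-148b targets differed little by code. ITGA5 (-0.08), ROCK1 (0.07) and CSF1 (-0.04) were not past the threshold. ROCK1, a kinase of the actin cytoskeleton, read 1913, 1388 and 1482 against 1844, 1583, 1300, 1889 and 1432, so the groups overlapped. CDK6, which drives entry into S phase, was past the threshold at 0.41 (adjusted p = 0.0196) although the groups overlapped and its second, dimmer probe gave 0.09 (adjusted p = 0.716 over all probes in limma). COPZ1, whose gene hosts miR-148b, was lower by -0.32 (adjusted p = 0.0463 in limma), at 2589 to 3056 against 3208 to 4026. Adjusted over all probes in limma, the same COPZ1 probe was not past the threshold (adjusted p = 0.0713). Its second, dimmer probe gave -0.15 (adjusted p = 0.332 over all probes in limma).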

How the data were processed

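Expression was measured on 1-colour Agilent whole human genome arrays of 8 MDA-MB-231 samples. Per the labels, Agilent Feature Extraction 10.5.1.1 quantified the images. The authors deposited normalized intensity values on a linear scale for 33446 probes, by a method not given in the sources used here. All arrays have nearly the same distribution, so a shift of all genes cannot be seen. Columns left out numbered 0. The number of arrays, 8, limits the precision.

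Intensities were log2-transformed without pseudocount or further normalization. Of the probes, 24790 had 1 gene, 27 had several and 8629 had none, through the platform annotation and a RefSeq table of GRCh38.p14 (24762 probes matched). Each of 15971 genes was read by its probe with the highest mean, and a gene whose empty cells left a term without an estimate was not tested. Empty cells (2864 probes, at most 3 each) stayed empty. Limma 3.58.1 in R 4.3.3 was fitted with code 1, treatment and plus mark (4 residual degrees of freedom), two-sided, with Benjamini-Hochberg adjustment and a threshold of 0.05, and was tested on simulated data. Named genes were the 15 largest rises and 15 largest falls called without overlap, 9 markers, up to 4 called members per list by smallest p (without a called one, up to 2 by size) and PTX3, CDK6, ITGA5, ROCK1, CSF1, DNMT1 and COPZ1; other list members, IFNAR1, IFNAR2, IFNGR2, IFNB1 and RPL28 were named after their values were seen. The members and lists were chosen with earlier results of these data known. Alternatives changed the terms, arrays, scaling, pseudocount, filter and prior. Figures were drawn with matplotlib.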

Additional observations from a re-analysis of the deposited data

Results flagged for a closer look

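Some values lay apart from the other arrays of codes 2 and 3. Of 192 named genes with all 5 of these values, 5 (2.60%) had 1 array whose gap to the next, on the log2 scale, took more than 0.71 of the range, which chance gives in about 1 of 20 groups. ODAPH read 413 on miR-148b replicate 3, above the next of 349. PCDH7 read 26.4 on the same array, above 16.5. IL1R1 read 236 on control replicate 3, above 186, and ITGA1 read 272 on control replicate 2, above 228. CXCL2 was low on miR-148b replicate 4, with 1354 below 1800. In all 5 genes the code 1 arrays still lay apart from these values.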

How the results depend on the processing

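Direction and call held under all alternatives for 144 of 196 named genes, and 4039 of 4242 comparisons of a named gene with an alternative changed neither, 190 lost the call, 4 gained it and 9 turned sign. The log2 difference of HLA-DMB turned with the mean of its probes (0.52), although its brighter probes taken singly gave -0.88 and -0.76. The log2 difference of ITGA5 turned without the code 3 arrays (0.064) and lay between -0.21 and 0.027 with 1 array left out, positive without miR-148b replicate 1. The log2 difference of ROCK1 turned with code 1 alone (-0.013) and with code 1 and the plus mark (-0.027), and lay between -0.0060 and 0.13 with 1 array left out, negative without miR-148b replicate 2. The log2 difference of CSF1 turned without plus-marked arrays (0.057), and lay between -0.14 and 0.054 with 1 array left out, positive without miR-148b replicates 2 and 3 (0.0029). ITGA5, ROCK1 and CSF1 were not called in the fit of the report. The main counts were 5789 genes and 9510 probes. Without the plus-marked arrays 3777 genes and 5248 probes passed, without the code 3 arrays 2254 and 2504, and with a 2-fold minimum 1849 genes; fewer arrays, or the added minimum, lower these counts. With code 1 and treatment as terms 6228 probes passed. Leaving out 1 array each gave 3406 (control replicate 1) to 6092 genes and 4777 to 10064 probes. Code 3 against code 2 gave 0 to 18 genes so (18 without miR-148b replicate 2), and the difference of miR-148b effects 1 with a pseudocount of 32. The cause was not tested. That difference could not be fitted without control replicate 1. List medians moved by more than the spread of arrays in 97 of 1034 comparisons, and 14 lists, with medians up to 0.14 in size, changed sign under some alternative. Same-numbered arrays of the treatments deviated together for replicates 1, 3 and 4 (correlations 0.71, 0.59 and 0.71) and not for replicate 2 (-0.55), the pair with different codes, so the numbers were not taken as a pairing. Residuals of the fit of the report correlated at -0.67, 0.36, -0.60 and 0.04. With the replicate number as a random block (correlation -0.05) 5916 genes and 9849 probes passed. Signals carry no background flag, so differences at low intensities are the least certain.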
